A study of Bos taurus with 42 samples.

Results

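The nuclear genes of the respiratory chain and of the mitochondrial ribosome were described in fetal bovine cerebrum, liver and hind-limb muscle. Genes were taken by symbol, namely those starting with NDUFA, NDUFB, NDUFC, NDUFS, NDUFV, SDHA to SDHD, UQCR, COX4 to COX8, ATP5, MRPL or MRPS, and CYC1. Of the 22664 genes in the count table, 65 were members. They comprised 18 subunits of complex I, 3 of complex II, 3 of complex III, 4 of complex IV, 6 of ATP synthase, 19 proteins of the large and 7 of the small mitochondrial ribosomal subunit, 4 assembly factors and NDUFA4L2. Symbols were known for 5131 genes only, those named in the supplementary tables of the study, and CYC1 was not among them. The members are therefore a sample of each complex, and 61 of the 65 entered because the study listed them in pairs of differentially co-expressed genes. The other 4 (COX6A2 in muscle; NDUFS8, NDUFAF3 and MRPL40 in liver) were on its lists of genes differing by diet, so for diet and for co-variation the choice of members is not independent evidence. COX6A2 was also on the muscle-specific list of the study, so its tissue difference is not independent either.

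The samples were cerebrum, liver and muscle from 14 fetuses of Angus-cross heifers bred to a common sire and collected on day 50 of gestation. From breeding, 7 dams received 100% of their nutrient requirements for a set weight gain (CON, 6 male fetuses and 1 female) and 7 dams received 60% of the CON intake (RES, 5 males and 2 females). Each fetus gave all 3 tissues, for 42 RNA-Seq libraries of 4145093 to 12741299 counted reads. Fetuses are named by diet and by their number in the labels. The unit used throughout is CPM, counts per gene as a fixed share of the scaled library total, after TMM scaling, which sets libraries on a common scale from the bulk of their genes. A change in a whole-tissue library cannot separate fewer cells of a type from less RNA per cell.

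Electrons from NADH enter the inner mitochondrial membrane at complex I and those from succinate at complex II. They pass through complex III and cytochrome c to oxygen at complex IV, and the proton gradient so built drives ATP synthase. A few core subunits of complexes I, III and IV and of ATP synthase are encoded in mitochondrial DNA and made on mitochondrial ribosomes, whose proteins are all nuclear genes. The members are all nuclear genes, and complex II is encoded in the nucleus alone. Of the mitochondrially encoded genes 12 were named in the table. Several complex IV subunits exist in pairs, a form found in most tissues and a heart and skeletal muscle form.

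Tissue labels held against their defining markers, with exceptions that bear on the members. Summed neuron markers lay between 2046 and 8893 CPM in cerebrum and at most 36.3 CPM in liver. Liver libraries held 65565.5 to 215812 CPM of hepatocyte markers and 9898 to 17796 CPM of erythroid markers. Limb mesenchyme markers had means of 286 CPM in liver and 312 CPM in muscle, so that list does not set these tissues apart. In the cerebrum library of RES fetus 1 all 8 hepatocyte markers were detected with a sum of 6036 CPM, mostly TTR (5627 CPM), which the choroid plexus also makes, against at most 1159 CPM in the other cerebrum libraries. The same library held 258 CPM of muscle markers and 273 CPM of erythroid markers, against at most 24.4 and 91.5 CPM in the others. The cerebrum library of CON fetus 23 had 8893 CPM of neuron markers, mostly STMN2 (5894 CPM), against 2046 to 4437 CPM in the other 13. Neuron markers also reached 1498 CPM in the muscle of CON fetus 73 and 345 CPM in the muscle of RES fetus 1, against at most 59.8 CPM in the other muscle libraries. Muscle markers were highest in the muscle of RES fetuses 1 and 6, at 11247 and 12286 CPM, against 1560 to 6797 CPM in the other 12. No defining marker of the tissue in question was at 0 in these libraries. Where leaving out the cerebrum libraries of CON fetus 23 and RES fetus 1, or the muscle libraries of RES fetuses 1 and 6, moved a count over all members by over 1.5 times, the count without them is given as well.

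The share of each library taken by the 12 mitochondrially encoded genes differed widely between tissues. In muscle it ran from 2.35% to 4.03% (median 2.82%), and in cerebrum from 2.73% to 14.7% (median 4.18%), with RES fetus 1 the highest in both. In liver it ran from 4.04% to 67.7% (median 11.0%). The highest 4 liver libraries were RES fetus 1 (67.7%), CON fetus 2 (44.9%), RES fetus 6 (35.6%) and RES fetus 33 (30.5%), and the other 10 lay at or below 16.4%. Between diets the share did not differ beyond the spread of the fetuses in any tissue. The difference of RES from CON was 1.49 percentage points in cerebrum, 12.1 in liver and -0.150 in muscle (two-sided exact permutation test over all splits of the fetuses, n = 7 and 7, p = 0.506, 0.280 and 0.580, all 0.580 after adjustment over the 3 tissues). Single fetuses moved all 3 differences. Without RES fetus 1 the cerebrum difference turned to -0.0266 percentage points and that of liver was 4.94. That of muscle was then -0.354 (exact permutation p = 0.052, 0.157 after adjustment over the 3 tissues). Without CON fetus 2 that of liver was 17.5 (exact permutation p = 0.064, 0.192 after adjustment).

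The members together took a small share of the counts. Expressed as a percentage of the counts outside the 12 mitochondrial genes, their sum was 0.468% ± 0.0931 (SD, n = 14) in cerebrum, 0.480% ± 0.0527 in liver and 0.390% ± 0.0412 in muscle. The ranges of the tissues overlapped. In cerebrum CON fetus 23 and RES fetus 1 stood at 0.672% and 0.669% and the other 12 libraries between 0.372% and 0.497%. In muscle RES fetuses 6 and 1 stood at 0.482% and 0.479% and the other 12 between 0.352% and 0.405%. By diet the liver means were 0.478% ± 0.0656 in CON and 0.482% ± 0.0413 in RES (n = 7 each), a gap smaller than either SD. So was that of cerebrum, with 0.466% ± 0.0972 in CON and 0.471% ± 0.0965 in RES. In muscle the means were 0.373% ± 0.0140 in CON and 0.407% ± 0.0528 in RES. That gap was larger than the CON SD and smaller than the RES SD. As a percentage of all counts the liver sum ran from 0.148% in RES fetus 1 to 0.483%. The plot of shares by library shows the mitochondrial share spread over an order of magnitude in liver beside the summed share of the members in the counts outside those 12 genes.

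**Figure D1:**
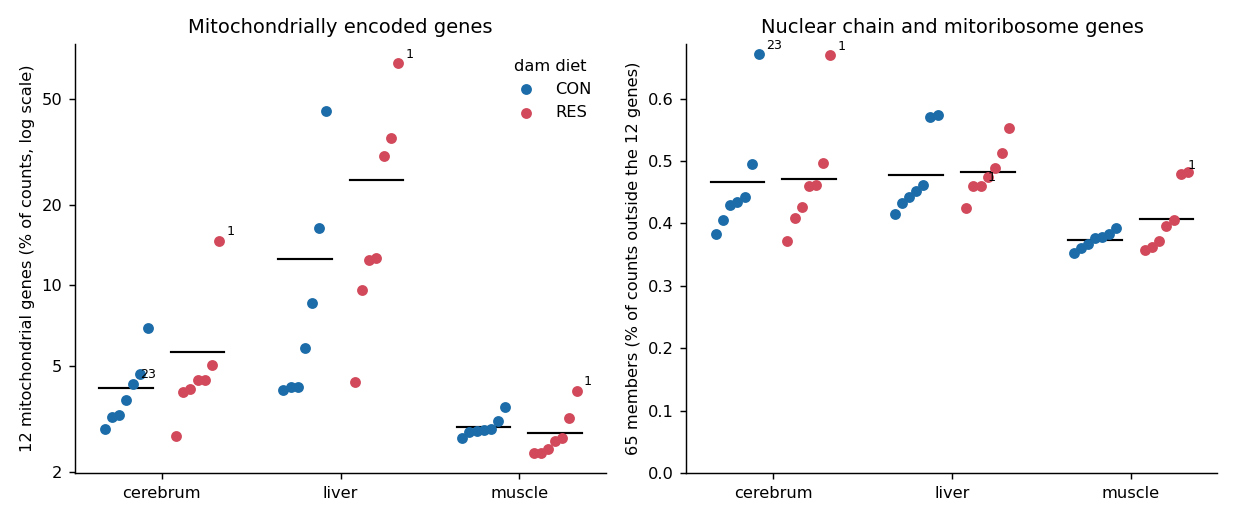
Share of counts from the 12 mitochondrially encoded genes (left, percent of all counts, log axis) and from the 65 members (right, percent of counts outside those 12 genes, linear axis) in each of the 42 libraries, by tissue and diet, with short bars for the mean of the 7 CON and the 7 RES libraries. Liver spans 4.04% to 67.7% on the left but 0.415% to 0.574% on the right, and fetuses 1 and 23 stand out in cerebrum.

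Most members were more abundant in liver than in cerebrum or muscle once libraries were scaled by TMM. Against cerebrum 50 of the 65 members were higher and 5 lower in liver, and 10 did not pass (edgeR quasi-likelihood test, adjusted p under 0.05), where 83.6% of the 15972 genes tested were called, 38.5% higher and 45.2% lower. Against muscle 55 were higher and 4 lower (all genes 82.0% called, 36.6% higher and 45.5% lower). The median log2 difference of the members was 0.99 against cerebrum and 1.17 against muscle, where the medians of all genes were -0.17 and -0.21. Muscle and cerebrum were closer, with 10 members higher and 23 lower in muscle (all genes 68.1% called, 32.2% higher and 35.9% lower) and a median of -0.18 beside -0.06 for all genes. The direction in liver depended on the scaling: with library totals in place of TMM only 20 members were higher and 23 lower against cerebrum, and 22 higher and 20 lower against muscle. That scaling moved the median of all genes to -1.20 and -1.23, and called 19.9% of all genes higher and 65.8% lower against cerebrum and 16.4% higher and 69.1% lower against muscle. Totals outside the 12 mitochondrial genes gave 30 members higher and 21 lower against cerebrum (all genes 24.2% and 62.2%) and 35 higher and 16 lower against muscle (all genes 20.7% and 64.3%). Relative to the median of all genes the members were 0.957 to 1.28 higher in liver than in cerebrum and 1.18 to 1.40 higher than in muscle on the log2 scale over the 13 settings tried. A change of scaling shifts all genes of a library alike and hardly moves this relative difference. Its range is therefore no check on the scaling. Between muscle and cerebrum that relative difference ran from -0.162 to 0.0242. Without the cerebrum libraries of CON fetus 23 and RES fetus 1 the muscle against cerebrum count turned to 20 higher and 14 lower (all genes 35.0% and 34.9%).

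**Figure D2:**
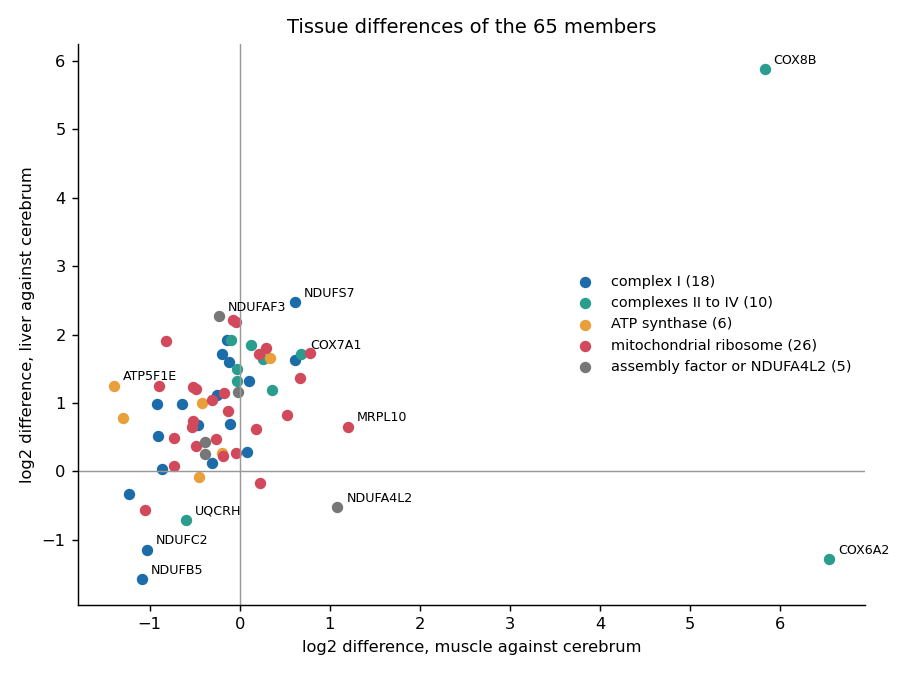
Log2 difference of each of the 65 members in muscle against cerebrum (horizontal) and in liver against cerebrum (vertical), TMM-scaled and coloured by role. Most points lie above 0 on the vertical axis and near 0 on the horizontal one, while COX6A2 and COX8B lie far to the right.

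By role and with TMM, complex I had 12 of 18 subunits higher and 3 lower in liver than in cerebrum (all genes 38.5% and 45.2%). Against muscle 15 were higher and 1 lower (36.6% and 45.5%). NDUFS7, an iron-sulfur core subunit, ran from 58.3 to 142.6 CPM (median 84.5) in the 14 liver libraries, 16.8 to 41.7 (median 24.3) in muscle and 5.90 to 57.8 (median 13.5) in cerebrum. All liver libraries lay above all others, and the cerebrum maximum belonged to RES fetus 1, beyond which cerebrum reached 17.6 CPM. Its log2 difference was 2.47 (standard error 0.19) for liver against cerebrum and 0.61 (0.18, adjusted p = 0.0033) for muscle against cerebrum. The accessory subunits NDUFB5 and NDUFC2 went the other way. NDUFB5 ran from 64.0 to 392 CPM in cerebrum (median 95.2), 18.7 to 52.5 in liver (median 44.2) and 40.1 to 79.2 in muscle (median 53.0). It was lower in liver than in both other tissues, by -1.58 (standard error 0.20) against cerebrum and -0.49 (0.20, adjusted p = 0.021) against muscle, the one member of which this was true. The difference from muscle did not pass without RES fetus 1 (-0.38), without RES fetus 6 (-0.39) or without the 4 liver libraries of highest mitochondrial share (-0.23). The cerebrum libraries lay above every liver library for it. NDUFC2 was higher in cerebrum than in the mean of the other tissues by 1.09 (0.15), and NDUFB8 by 0.79 (0.13). All 3 of these accessory subunits sit in the membrane arm, and all peaked in the cerebrum of CON fetus 23. UQCRH, the hinge protein of complex III, was named after its values were seen and completes the 5 members lower in liver than in cerebrum (-0.72, standard error 0.19) together with the ribosomal protein MRPL32 (-0.56, 0.17). Without the cerebrum libraries of CON fetus 23 and RES fetus 1 these differences were -0.33 (adjusted p = 0.018) for UQCRH and -0.36 for MRPL32. The call of NDUFB8 moved with the fit and the libraries. Its difference of -0.34 (standard error 0.16, adjusted p = 0.044) was -0.26 (adjusted p = 0.063) with the fetus as replicate block and -0.07 without the same 2 cerebrum libraries, and it passed in 6 of the 14 fits that left out 1 fetus.

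All 3 members of complex II were higher in liver against both tissues with TMM, as they were against cerebrum with totals outside the 12 mitochondrial genes. Against muscle 2 were higher with those totals, and with library totals 2 were higher against cerebrum and none against muscle. For complex I library totals gave 5 higher and 7 lower in liver than in cerebrum and 7 and 4 against muscle, and totals outside the mitochondrial genes 7 and 6, and 10 and 4. Of all genes, library totals called 19.9% higher and 65.8% lower against cerebrum and 16.4% and 69.1% against muscle. Totals outside the mitochondrial genes called 24.2% and 62.2%, and 20.7% and 64.3%. SDHA, the flavoprotein that oxidises succinate, ran from 128 to 363 CPM in liver (median 253), 51.5 to 143 in cerebrum and 77.9 to 123 in muscle, and liver exceeded cerebrum by 1.65 (standard error 0.14). In complex III, UQCRC1, a core protein, lay between 221 and 292 CPM in all liver libraries and between 55.7 and 138 CPM in all others, with no overlap. For ATP synthase 4 of 6 members were higher in liver than in cerebrum with TMM. Library totals gave 1 higher and 2 lower there, and totals outside the mitochondrial genes 2 and 2. In muscle 4 of 6 were lower than in cerebrum (35.9% of all genes). Without the cerebrum libraries of CON fetus 23 and RES fetus 1 the muscle counts were 2 lower and 1 higher (all genes 34.9% and 35.0%). The largest of the 4 differences in muscle were those of ATP5F1E and ATP5MF. ATP5F1E, the epsilon subunit of the catalytic head, ran from 11.3 to 18.8 CPM in muscle against 14.3 to 168.7 in cerebrum. ATP5MF, the f subunit of the membrane part, ran from 51.7 to 90.3 CPM against 61.8 to 808.5. In cerebrum CON fetus 23 gave the highest value of both, and the next were 36.3 and 141.9 CPM. Cerebrum and muscle ranges overlapped for both genes, and their log2 differences in muscle against the mean of cerebrum and liver were -2.02 (standard error 0.24) and -1.68 (0.25). Without the 2 cerebrum libraries they were -1.79 and -1.40, and against cerebrum alone the differences in muscle went from -1.39 to -0.89 for ATP5F1E and from -1.29 to -0.70 for ATP5MF.

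With TMM most genes of the mitochondrial ribosome were also higher in liver. Of the 26 proteins, 23 were higher and 1 lower in liver than in cerebrum (all genes 38.5% and 45.2%). Against muscle 24 were higher and 1 lower (36.6% and 45.5%). Library totals gave 6 higher and 9 lower against cerebrum (all genes 19.9% and 65.8%) and 8 and 8 against muscle (16.4% and 69.1%). Totals outside the 12 mitochondrial genes gave 11 and 8 (24.2% and 62.2%), and 14 and 7 (20.7% and 64.3%). The 7 small-subunit proteins were all higher in liver in both comparisons with TMM, but with library totals 2 were higher and 3 lower against cerebrum and 3 and 2 against muscle. The excess in liver over the mean of the other tissues was ranked among members higher there than in both. It was largest for the complex I assembly factor NDUFAF3 (2.39, standard error 0.17). The ribosomal proteins MRPL40 (2.31, 0.22), MRPS26 (2.26, 0.15) and MRPL23 (2.20, 0.19) followed. COX8B had a larger excess over that mean (2.96, 0.34) but did not pass against muscle with TMM. MRPL40 ran from 45.2 to 289 CPM in liver (median 88.2), 12.0 to 105 in cerebrum (median 24.3) and 12.9 to 25.8 in muscle (median 15.3). Every liver library exceeded every muscle library for it, and only the cerebrum of CON fetus 23 lay within the liver range. MRPL40 was also lower in muscle than in cerebrum (-0.82, standard error 0.26, adjusted p = 0.0053), a difference of -0.42 that no longer passed without the 2 cerebrum libraries that stood apart. MRPS25 showed the same order, with medians of 27.4, 12.9 and 6.93 CPM in liver, cerebrum and muscle. MRPL10, a protein of the large subunit, was the exception, at 42.9 to 61.4 CPM in muscle (median 54.9), 29.0 to 43.5 in liver (median 37.8) and 12.9 to 57.0 in cerebrum (median 20.2). It was higher in muscle than in the mean of the others by 0.87 (standard error 0.12). MRPL52, another large-subunit protein, was lowest in cerebrum (-1.26 against the mean of the others, standard error 0.15), and MRPL32 highest there (0.81, 0.14).

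Of the muscle-type subunits of complex IV, COX6A2 was higher in muscle than in both other tissues, and with TMM scaling COX8B and COX7A1 were not. COX6A2, the heart and skeletal muscle form of subunit VIa, ran from 3.54 to 37.0 CPM in the 14 muscle libraries (median 10.5), while 7 of 14 cerebrum and 12 of 14 liver libraries held no read. It was tested over the 42 libraries but was left out of the fits within cerebrum and within liver for low counts. Its fitted log2 difference was 6.54 (standard error 0.44) for muscle against cerebrum and -7.82 (0.52) for liver against muscle, values that depend on the prior count. From pooled reads (1647 in muscle, 13 in cerebrum, 3 in liver) muscle exceeded cerebrum 103-fold and liver 337-fold, with exact 95% intervals of 60.2 to 194 and 115 to 1634 that cover counting error only. The most COX6A2 reads in a cerebrum library, 6, came from RES fetus 1, which also held muscle markers, and without it the excess over cerebrum was 176-fold (85.1 to 438).

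COX8B, the muscle form of subunit VIII, was shared by muscle and liver. It ran from 1.63 to 16.2 CPM in muscle (median 3.39) and 1.74 to 14.5 CPM in liver (median 3.77), and 11 of 14 cerebrum libraries held no read. Pooled reads put liver 64.2-fold above cerebrum (exact 95% interval 30.8 to 161, from 338 and 7 reads), and 5 of the 7 cerebrum reads came from RES fetus 1. Without that library the ratio was 206 from 2 cerebrum reads (56.6 to 1708). Liver and muscle did not differ beyond the error for COX8B (0.05, standard error 0.31, adjusted p = 0.89), and the sign of that estimate turned with the scaling and with the libraries used. With library totals COX8B was lower in liver than in muscle (-1.16, adjusted p = 4.3e-04), as it was with totals outside the 12 mitochondrial genes (-0.78, adjusted p = 0.017), so that under both it passed as higher in muscle than in both other tissues. COX8A, the form found in most tissues, ran from 131 to 293 CPM in liver, 51.8 to 90.2 in muscle and 20.7 to 156 in cerebrum. Liver exceeded cerebrum by 1.84 (0.17) and muscle by 1.72 (0.17), and all liver libraries lay above all muscle libraries for COX8A. COX7A1, the muscle form of subunit VIIa, had its highest median in liver as well, at 31.8 CPM, against 15.3 CPM in muscle and 6.64 CPM in cerebrum. Its excess in liver over muscle of 1.02 (standard error 0.27, adjusted p = 5.6e-04) became -0.08 with library totals in place of TMM. NDUFA4L2, a paralogue of the complex IV subunit NDUFA4 known for its induction by low oxygen, was like COX6A2 higher in muscle than in both other tissues. It ran from 4.26 to 22.8 CPM in muscle (median 11.7), 2.72 to 11.1 in cerebrum and 1.49 to 7.15 in liver, and was higher in muscle than in the mean of the others by 1.34 (0.21).

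**Figure D3:**
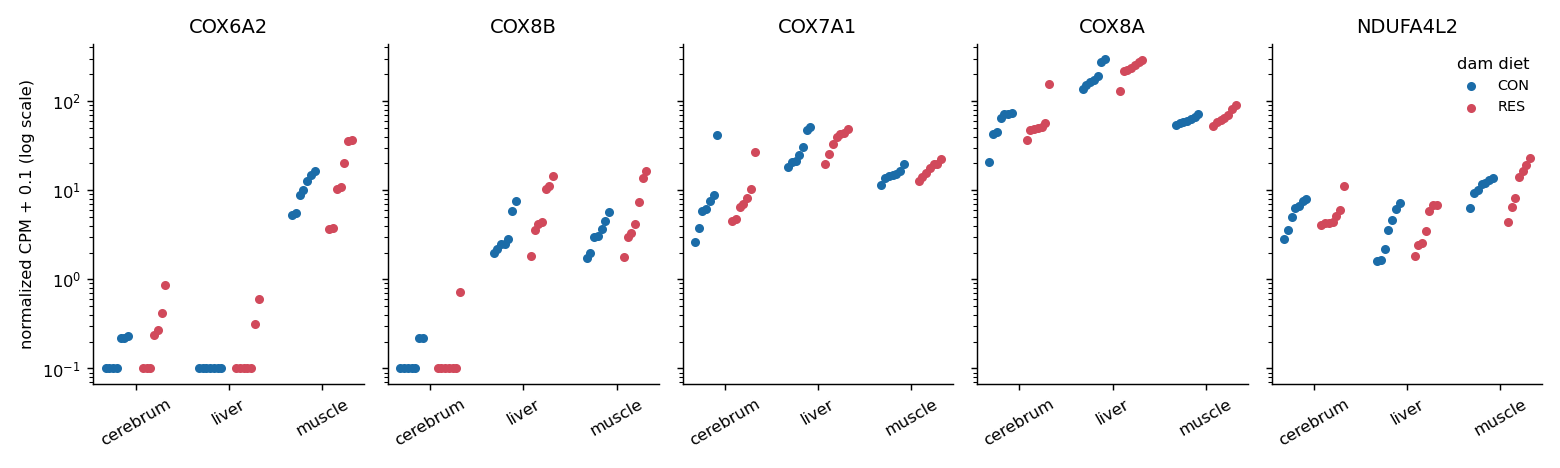
Level of COX6A2, COX8B, COX7A1, COX8A and NDUFA4L2 in each library (CPM plus 0.1, log axis), by tissue and diet. COX6A2 is near 0 outside muscle, COX8B is near 0 in cerebrum only, and COX7A1 and COX8A have their highest medians in liver.

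In all, 48 of 65 members were higher in liver than in both other tissues (29.9% of all genes tested) and 1 was lower than in both (36.0%). In muscle 19 were lower than in both others (11.5%) and 3 higher (16.7%), namely COX6A2, NDUFA4L2 and MRPL10. Cerebrum was higher than both for 5 members (25.7%) and lower for 8 (18.6%). Without the cerebrum libraries of CON fetus 23 and RES fetus 1, 12 members were lower in muscle than in both others (10.9%) and 4 higher (17.4%), with MRPL33 (named after its values were seen) added, and cerebrum was higher for 3 (25.6%) and lower for 17 (22.1%). Liver was then higher than both for 52 members (32.2%) and lower for 1 (35.2%). Without RES fetus 1 alone 13 members were lower in cerebrum (21.5%) and none in liver (34.6%). With library totals in place of TMM liver was higher for 13 members (13.4%) and lower for 17 (59.1%), cerebrum higher for 11 (28.7%) and muscle lower for 9 (4.61%). With TMM the mitochondrially encoded genes went the same way in liver as most nuclear members. Of these genes 12 of 12 were higher against each tissue, with median log2 differences of 3.34 against cerebrum and 3.69 against muscle. The medians were 1.71 and 2.08 with library totals and 1.64 and 2.14 without the 4 liver libraries of highest mitochondrial share, again with 12 of 12 higher. With library totals the nuclear members went both ways, as given above.

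Related lists of nuclear mitochondrial genes were described in the same fits, and their directions in liver also depended on the scaling. With TMM, other assembly and respiratory chain factors had 8 of 11 higher and 1 lower in liver than in cerebrum, tricarboxylic acid cycle enzymes 4 of 7 higher and 2 lower, mitochondrial translation factors and tRNA synthetases 9 of 14 higher and none lower, and protein import components 6 of 10 higher and 3 lower. Against muscle these lists had 9 of 11 higher and none lower, 5 and 2 of 7, 9 and none of 14, and 7 and 1 of 10. With library totals the 4 lists had 1 higher and 4 lower, 2 and 4, 2 and 9, and 3 and 6 against cerebrum, and 3 and 3, 2 and 4, 3 and 9, and 1 and 3 against muscle. Of 6 regulators of these genes, 4 were then lower and none higher in liver than in cerebrum, and 3 lower and 1 higher than in muscle. Of all genes, library totals called 19.9% higher and 65.8% lower against cerebrum, and 16.4% and 69.1% against muscle. With TMM these shares were 38.5% and 45.2%, and 36.6% and 45.5%. The values that follow are with TMM. TFB1M, which methylates mitochondrial ribosomal RNA, was higher in liver than in cerebrum (1.28, standard error 0.11) and muscle (0.87, 0.11). The coactivator PPARGC1A was higher in liver by 0.50 (0.12) and 1.57 (0.13), and the transcription factor NRF1 by 0.67 (0.16) and 0.51 (0.16). GABPA, the DNA-binding subunit of NRF-2, differed by 0.41 (0.15, adjusted p = 0.012) and 0.30 (0.15, adjusted p = 0.061). Its partner GABPB1 was lower in liver, by -1.10 (0.13) against cerebrum and -0.94 (0.13) against muscle. YY1 did not pass (0.03, standard error 0.12, against cerebrum). GABPB1 was lower in liver under all 4 scalings tried, and PPARGC1A was higher than in muscle under all 4 (0.50 with library totals). Against cerebrum library totals turned PPARGC1A to -0.58, NRF1 to -0.34 (adjusted p = 0.19) and GABPA to -0.61, and left TFB1M at 0.17 (adjusted p = 0.24). Against muscle NRF1 was then -0.46 (adjusted p = 0.076), GABPA -0.69 and TFB1M -0.21 (adjusted p = 0.14).

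No member differed by maternal diet at an adjusted p under 0.05 in any tissue by edgeR, and no other gene either (0.0% of the 15151 genes tested in cerebrum, 13527 in liver and 14947 in muscle). The study took its lists of genes differing by diet from an earlier report on the same animals, made with the Tuxedo pipeline. Those lists hold COX6A2 in muscle and NDUFS8, NDUFAF3 and MRPL40 in liver. The reason for the different calls was not tested. The question put to these data was whether restriction of the dam altered expression in the fetus. At an unadjusted p under 0.05 none of 63 members differed in cerebrum (2.55% of all genes). In liver 8 were higher and 5 lower in RES of 64 (all genes 13.5% and 10.6%), and in muscle 16 were higher and none lower of 65 (all genes 5.0% and 4.91%). The counts depended on single fetuses and, in liver, on the scaling. On leaving out 1 fetus the liver count ran from 8 without RES fetus 1 to 26 without CON fetus 2 (all genes 14.1% and 35.0%), and the muscle count of higher members from 6 without RES fetus 1 or RES fetus 6 (3.5% and 2.89%) to 28 without RES fetus 33 (6.38%). With library totals 1 member was higher and 3 lower in liver (0.998% and 11.4%) and 16 of 64 estimates were above 0, against 44 with TMM, with a median of -0.19 beside -0.37 for all genes. DESeq2 called 1 member in liver, NDUFV3, where it called 0.577% of all genes, and none in cerebrum or muscle. For diet by tissue, no member passed the interaction test (0.0% of 15972 genes; 5.62% at an unadjusted p under 0.05), and the 2 lowest p were those of NDUFV3 (0.0088) and MRPS25 (0.022), both with an adjusted p of 0.83.

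In muscle 63 of 65 estimates were above 0 in RES, with a median of 0.18 beside -0.01 for all genes. NDUFB10, an accessory subunit of complex I, ran from 64.0 to 86.4 CPM in CON (median 73.7) and from 69.5 to 101.7 in RES (median 87.0), and the groups overlapped. Its log2 difference was 0.24 (standard error 0.07, edgeR adjusted p = 0.46). MRPL21 differed by 0.30 (0.09) and UQCRC1 by 0.28 (0.10, adjusted p = 0.47), again with overlapping groups. For UQCRC1 the CON libraries lay between 74.1 and 83.6 CPM, and RES fetuses 1, 6 and 52 at 121.6, 126.5 and 97.6 CPM stood above the other 4 RES libraries (77.3 to 85.1). COX8B reached 16.2 and 13.7 CPM in RES fetuses 1 and 6, and 1.63 to 7.2 CPM in the other 12 libraries (1.10, standard error 0.44, adjusted p = 0.48). COX6A2 showed the same pair at 37.0 and 35.7 CPM against 3.54 to 19.9 CPM elsewhere (0.69, 0.48). These were the libraries highest in muscle markers, of which all 9 were estimated higher in RES (median 0.52, none at an unadjusted p under 0.05). Without RES fetuses 1 and 6, 3 members were higher and 1 lower at an unadjusted p under 0.05 (all genes 2.86% and 2.82%), 46 of 65 estimates were above 0 and their median was 0.04. NDUFB10 was then 0.18, MRPL21 0.19, UQCRC1 0.11, COX8B 0.28 and COX6A2 -0.09. The estimates below 0 in muscle were those of MRPS11 (-0.04, standard error 0.12) and NDUFAF5 (-0.03, 0.11).

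In liver the members with the lowest p went in both directions. NDUFV3, an accessory subunit at the NADH-oxidising end of complex I, ran from 35.7 to 69.1 CPM in CON (median 50.8) and from 17.6 to 52.6 in RES (median 32.8). RES fetuses 33, 1 and 6 were the lowest at 17.6, 20.7 and 22.5 CPM, and CON fetus 2 was the lowest of its group. The estimate was -0.86 (standard error 0.23, edgeR adjusted p = 0.18). SDHA (-0.57, 0.21) and ATP5F1B, the catalytic beta subunit of ATP synthase (-0.61, 0.23), were also lower by their estimates. On the other side MRPL40 (0.94, 0.31), NDUFS8 (0.83, 0.29), MRPS25 (0.73, 0.24) and NDUFAF3 (0.87, 0.33) were higher by their estimates, none past an adjusted p of 0.18. NDUFS8, an iron-sulfur core subunit of complex I, ran from 73.1 to 182 CPM in CON and 68.3 to 378 CPM in RES, where fetuses 1, 6 and 33 were the highest at 378, 297 and 244 CPM. These 3 and CON fetus 2, the top of its own group, are the liver libraries with the highest mitochondrial share. Without those 4 libraries no member was higher and 1 was lower at an unadjusted p under 0.05 (all genes 3.54% and 3.32%). The median over the members was 0.15 with and without them, and 47 of 64 estimates were above 0 without them. The genes named here were nearer to 0 without them, at -0.53 for NDUFV3, -0.25 for SDHA, -0.31 for ATP5F1B, 0.54 for MRPL40, 0.29 for NDUFS8, 0.40 for MRPS25 and 0.48 for NDUFAF3. The part of the mitochondrial share in the liver differences was not tested.

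In cerebrum the estimates of the members with the lowest p followed single libraries. None came near the threshold (edgeR adjusted p 0.999 for each gene named here). ATP5MF was 808.5 CPM in CON fetus 23 and 61.8 to 141.9 CPM in the other 13 libraries (-0.89, standard error 0.55). NDUFB5 (-0.59, 0.39) and NDUFC2 (-0.54, 0.38) followed the same library. NDUFS7 was 57.8 CPM in RES fetus 1 and 5.90 to 17.6 CPM in the others (0.62, 0.38), NDUFA9 was 70.9 CPM there (0.47, 0.31), and MRPS9 39.5 CPM (0.20, 0.18). Without both libraries the estimates were 0.03 for ATP5MF, 0.02 for NDUFB5, -0.06 for NDUFC2, 0.0089 for NDUFS7, 0.05 for NDUFA9 and 0.13 for MRPS9, and the median over the members was 0.0041, beside -0.11 with them. Single fetuses turned that median, to -0.31 with 4 of 63 estimates above 0 without RES fetus 1 and to 0.19 with 58 above 0 without CON fetus 23. No median of all genes is set beside the fits without 1 fetus. Over the 10 other settings tried, the members relative to the median of all genes ran from -0.119 to 0.0073.

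**Figure D4:**
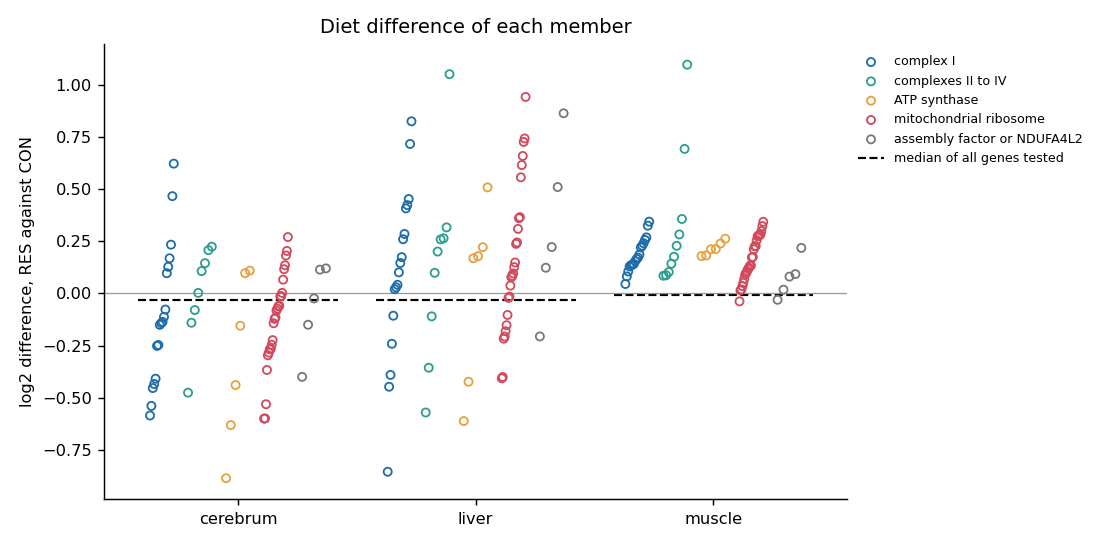
Log2 difference of RES against CON for each tested member in cerebrum, liver and muscle, by role, with open circles for members not past an adjusted p of 0.05, which is every member, and a dashed line at the median of all genes. The muscle points lie mostly above 0, and those of liver and cerebrum on both sides.

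Members passed the test of a slope on the mitochondrial share mainly in liver, although the median slope was smaller there (0.14, 48 of 64 above 0) than in cerebrum (0.35, 62 of 63) and muscle (0.49, 63 of 65). Without CON fetus 23 and RES fetus 1 the cerebrum median was -0.06, and without RES fetuses 1 and 6 the muscle median was -0.05. Without RES fetus 1 alone 37 cerebrum slopes were above 0. Relative to the median slope of all genes, the members ran from -0.081 to 0.34 in cerebrum over the 10 settings tried. In muscle they ran from -0.050 to 0.87 over 11, and in liver from 0.129 to 0.284 over 10. The slope was fitted per doubling of the ratio of mitochondrially encoded to other counts, with sex and diet in the model and the 12 genes removed. Of 64 members 35 had a positive and 9 a negative slope in liver (edgeR, adjusted p under 0.05), where 51.5% of 13792 genes were called, 25.9% positive and 25.7% negative. The median slope of all genes was 0.00. With library totals in place of TMM the counts were 21 positive and 11 negative (all genes 16.4% and 33.1%), and without the 4 liver libraries of highest share 39 positive and 3 negative (16.8% and 19.2%). NDUFAF3 ran from 274 to 397 CPM in those 4 libraries and from 59.0 to 197 CPM in the other 10, with a slope of 0.43 (standard error 0.04, adjusted p = 2.1e-06). MRPL40 ran from 157 to 289 CPM against 45.2 to 127.5 CPM (0.40, 0.04, adjusted p = 6.2e-07). NDUFAF5, a second complex I assembly factor, had a slope of 0.41 (0.04). For each of NDUFAF3 and MRPL40 the 4 libraries lay above the other 10.

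The negative slopes included the catalytic subunits of ATP synthase and of complex II (SDHA, -0.18). ATP5F1B ran from 260 to 379 CPM in the 4 libraries of highest share and from 402 to 753 CPM in the other 10, without overlap (-0.21, standard error 0.05, adjusted p = 0.0011). NDUFB5 ran from 18.7 to 25.6 CPM against 38.1 to 52.5 CPM (-0.24, 0.04), a slope of -0.09 that did not pass without those 4 libraries. NDUFV3 had a slope of -0.21 (0.05). By role complex I had 10 positive and 3 negative slopes of 18, complex II 1 and 2 of 3, complex IV 3 and none of 3, ATP synthase 3 and 2 of 6, the large ribosomal subunit 9 and 2 of 19 and the small subunit 5 and none of 7. None of the 3 complex III members passed, and 3 of 4 assembly factors were positive. Beside these counts, 25.9% of all genes had a positive slope and 25.7% a negative one. Of the genes outside the members, translation factors had 6 positive and 2 negative of 14, tricarboxylic acid cycle enzymes 4 and 3 of 7, other assembly and respiratory chain factors 5 and 1 of 11, and protein import components 3 and 1 of 10. Of the marker lists, hepatocyte markers had 1 positive and 1 negative of 8, erythroid markers 3 positive and none negative of 6, and muscle markers 1 positive of 2, and the 1 tested limb mesenchyme marker was negative. Their part in the slopes of the members was not tested.

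**Figure D5:**
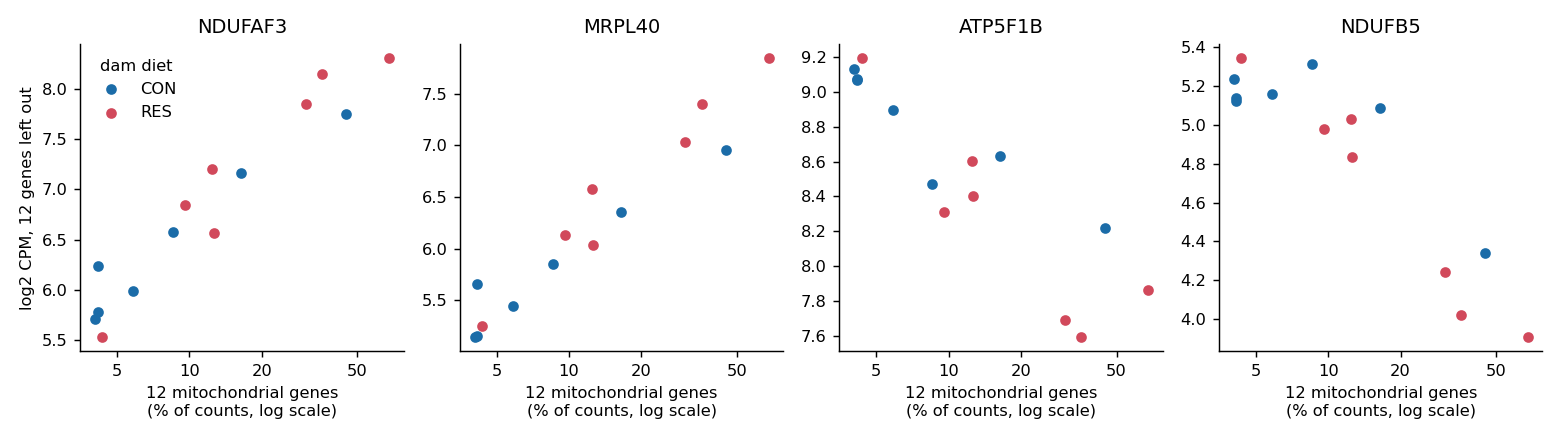
Log2 CPM of NDUFAF3, MRPL40, ATP5F1B and NDUFB5 in the 14 liver libraries (the 12 mitochondrial genes left out) against the mitochondrial share of the library in percent (log axis), by diet. The first pair climbs with the share and the second pair declines.

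In cerebrum 3 of 63 members had a positive slope and none a negative one (15.3% of 15278 genes called, 7.28% positive and 8.05% negative), and the level of each was highest or next to highest in the library of RES fetus 1. UQCR11, a small subunit of complex III, was 112 CPM there, 89.5 CPM in CON fetus 23 and 20.3 to 35.4 CPM in the other 12 (slope 0.82, standard error 0.24, adjusted p = 0.030). NDUFB10 (0.71, 0.22) and NDUFA7 (0.65, 0.20), accessory subunits of complex I, were the others. The count depended on single libraries. Without RES fetus 1 no member passed (0.455% of all genes). None passed without CON fetus 54, RES fetus 6 or RES fetus 52 either (11.6%, 11.8% and 10.3% of all genes). By contrast 21 passed without CON fetus 2 and 22 without CON fetus 23 (26.0% and 24.1%). Without both CON fetus 23 and RES fetus 1, 7 other members passed, all with a positive slope (8.14% of all genes, 3.81% positive and 4.33% negative), the slopes of UQCR11, NDUFB10 and NDUFA7 were 0.12, 0.24 and 0.40, and the median over the members was -0.06. With all libraries DESeq2 called 6 members (20.1% of all genes), edgeR without sex 8 (17.8%), with a stricter filter 5 (16.5%) and with library totals 5 (10.8%). Of the 8 hepatocyte markers all had slopes above 0 and 1 passed, and 4 of 5 muscle, 3 of 5 erythroid and 2 of 3 limb mesenchyme markers were positive, while 1 of 8 neuron markers was negative (median slope -0.35). Their part in the slopes of the members was not tested. In muscle no member passed by edgeR (0.0% of 14978 genes), while DESeq2 called 4 positive and 1 negative (3.31% of all genes called) and edgeR without sex as a covariate 8 positive (4.34% of all genes called). At an unadjusted p under 0.05, 32 were positive and 1 negative of 65 (all genes 8.95% and 10.4%), led by COX8A (0.60, standard error 0.16, adjusted p = 0.10), and the negative one was NDUFA4L2 (-2.33, 0.75). All 9 muscle markers (median 1.38, none at an unadjusted p under 0.05) and all 5 tested neuron markers (4 at that threshold) also had slopes above 0. The 3 limb mesenchyme markers (median -0.93, 2 at that threshold), the 3 tested cartilage markers (median -1.48, 1) and the 3 tested erythroid markers (median -0.34, none) had slopes below 0, and 4 of 6 hepatocyte markers did (none). Without RES fetuses 1 and 6 no member was positive and 1 negative at that threshold (all genes 9.09% and 5.16%), 29 of 65 slopes were above 0 with a median of -0.05, and the slopes of COX8A and NDUFA4L2 were 0.41 and -0.05. The 9 muscle markers were then all below 0 (median -3.63, 6 at that threshold), and the 3 cartilage markers above it. The 4 neuron markers then tested were all above 0 (median 14.9), and 3 of them passed at an adjusted p under 0.05, as did 1 limb mesenchyme marker with a negative slope. The part of the markers in the slopes of the members was not tested.

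Members varied together across the libraries of a tissue. Over all pairs of tested members the median Pearson correlation of log2 CPM, after removal of sex and diet means, was 0.73 in cerebrum (1953 pairs, 14 libraries), 0.48 in liver (2016 pairs) and 0.57 in muscle (2080 pairs), where the median over pairs of all genes was between -0.01 and 0.00. The share of pairs with a positive correlation was 95.4% in cerebrum, 70.7% in liver and 90.0% in muscle. The libraries that stood apart carried much of this in cerebrum and muscle. Without CON fetus 23 and RES fetus 1 the cerebrum median was 0.41 with 67.7% of pairs positive, and without RES fetuses 1 and 6 and CON fetus 73 the muscle median was 0.22 with 70.2% positive. In liver these values were 0.68 and 74.7% without the 4 libraries of highest mitochondrial share, so that liver was lowest with all libraries and highest without those that stood apart. Chain and ATP synthase subunits had medians of 0.71 in cerebrum, 0.56 in liver and 0.65 in muscle, and the ribosomal proteins 0.78, 0.44 and 0.50. Without the same libraries the medians were 0.36, 0.75 and 0.36 for the former and 0.40, 0.66 and 0.11 for the latter. These correlations share libraries and depth, and most members were listed by the study for their co-expression.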

How the data were processed

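Whole-tissue RNA from 42 samples was sequenced with strand-specific libraries, and the authors deposited raw read counts per gene, obtained with the GeneCounts option of STAR 2.7.3a on the ARS-UCD 1.2 bovine assembly after FastQC 0.11.8 (submitters' processing notes and the methods of the study). Which strand column was used is not given in the sources used here. No column lacked a sample, and no 2 libraries were identical.

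Groups, sex and fetus numbers came from the labels. The fetus is the replicate. Genes under 1 CPM in 80% or more of the libraries of a fit were left out. Library totals ran from 4145093 to 12741299 counts, so genes of few CPM rest on few reads. Counts were tested with edgeR 4.0.16 in R 4.3.3 (TMM, quasi-likelihood, Benjamini-Hochberg over all tested genes), with sex as a covariate. Diet was tested within each tissue, and tissues and the diet by tissue interaction over all 42 libraries. For the mitochondrial share, the 12 mitochondrially encoded genes were removed from the table and the library totals, and sex and diet were kept in the model. DESeq2 1.42.0 was an alternative. The fits were tested on simulated data. Shares were compared by exact permutation (scipy 1.17.1).

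Tissues shared fetuses. Deviations from group means correlated between tissues of the same fetus with medians of 0.031 (cerebrum and liver), 0.058 (cerebrum and muscle) and 0.12 (liver and muscle), against -0.0074, -0.027 and -0.016 for different fetuses, so a fit with the fetus as block was an alternative.

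Members and lists were chosen with earlier results of these data known. Genes named were the members with the largest tissue differences that held against both other tissues, those with the lowest p for diet, interaction and mitochondrial share, the complex IV isoform genes, and members on the lists of the study. Other alternatives were the size factors, the filter, the covariates, the 12 mitochondrial genes and leaving out each fetus. Scaling by totals and leaving out sets of libraries were chosen after seeing the data. Gene lengths were not used here, so levels are not compared between genes.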

Additional observations from a re-analysis of the deposited data

Results flagged for a closer look

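The 40 members named in the text and 4 shares of the counts were examined in groups of 7 libraries. Of 258 groups, 51 held 1 library that lay farther from the rest than Dixon's critical value of 0.568 allows. Chance flags about 1 in 20 groups, but many of these genes were named for differences that the far libraries set, so the count is not read against that rate. Over all 65 members 82 of 384 groups held such a library, which was the cerebrum of CON fetus 23 in 39 and that of RES fetus 1 in 32, and groups of the same libraries are not independent. Among the named genes and shares the cerebrum of CON fetus 23 was the far library in 23 groups. Its members took 0.6715% of the counts outside the mitochondrial genes (the other CON cerebrum libraries 0.3822% to 0.4957%), and the chain and ATP synthase members 0.5273% (others 0.2943% to 0.37%). Of the named genes the most distant by Dixon's ratio was ATP5MF at 808.5 CPM (others 65.86 to 130.7), followed by ATP5F1E at 168.7 CPM (others 14.29 to 33.23), ATP5MPL at 237.2 CPM (others 51.77 to 74.72) and MRPL17 at 193.7 CPM (others 24.79 to 45.86). ATP5MC3 stood at 617.2 CPM, COX7A1 at 41.32 and SDHC at 37.02 CPM. The complex I subunits among them were NDUFA7 at 123.7 CPM, NDUFB10 at 205.1, NDUFB5 at 392.3, NDUFB8 at 492.8 and NDUFC2 at 371.9 CPM. UQCR11 stood at 89.52 CPM and UQCRH at 950.8 CPM (others 138.9 to 312.3). Of the ribosomal proteins MRPL10 stood at 49.28 CPM, MRPL23 at 29.91, MRPL32 at 93.4, MRPL33 at 32.07, MRPL34 at 30.99, MRPL40 at 105.5 and MRPS26 at 57.89 CPM. In each case this library was the highest of its group.

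The cerebrum of RES fetus 1 was the far library in 24 groups, again the highest in each. Its mitochondrial share was 14.69% (the other RES cerebrum libraries 2.727% to 5.014%). Its members took 0.6691% of the counts outside the mitochondrial genes (others 0.3716% to 0.4975%), the chain and ATP synthase members 0.506% (others 0.2781% to 0.3737%) and the ribosomal members 0.142% (others 0.08307% to 0.1081%). Of the named genes MRPL10 was the most distant at 56.95 CPM (others 16.15 to 21.01), then UQCR11 at 112.1 CPM (others 20.27 to 32.8) and NDUFS7 at 57.83 CPM (others 9.756 to 16.83). The complex IV genes COX7A1 and COX8A stood at 27.03 and 156.4 CPM, and NDUFA4L2 at 11.06 CPM. MRPL17 stood at 72.67 CPM, MRPL34 at 25.9, MRPL52 at 68.65, MRPS11 at 31.05, MRPS26 at 49.91 and MRPS9 at 39.48 CPM. NDUFA7 stood at 119.1 CPM, NDUFA9 at 70.91, NDUFB10 at 256.9, NDUFV3 at 58.09, SDHA at 143.1 and SDHC at 46.65 CPM. ATP5F1D stood at 169.6 CPM and ATP5MPL at 181.4 CPM.

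The liver of CON fetus 2 was the far library in 3 groups, with a mitochondrial share of 44.95% (the other CON liver libraries 4.043% to 16.42%) and the lowest NDUFB5 at 25.56 CPM (others 44.84 to 52.46) and SDHC at 27.43 CPM (others 52.99 to 69.19). The cerebrum of RES fetus 52 had the lowest MRPL33 of its group at 4.325 CPM (others 6.485 to 7.879). UQCRH, MRPL33, ATP5F1D, MRPL17, MRPL34, SDHC, ATP5MC3 and ATP5MPL were named after their values were seen.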

How the results depend on the processing

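Scaling and the libraries used both moved the tissue counts. Of the members, 20 were higher and 23 lower in liver than in cerebrum with library totals, and 30 higher and 21 lower with totals outside the 12 mitochondrial genes. Against muscle these counts were 22 and 20, and 35 and 16. Of all genes, library totals called 19.9% higher and 65.8% lower against cerebrum and 16.4% and 69.1% against muscle. Totals outside the 12 mitochondrial genes called 24.2% and 62.2%, and 20.7% and 64.3%. Without the cerebrum libraries of CON fetus 23 and RES fetus 1, 20 members were higher and 14 lower in muscle than in cerebrum (all genes 35.0% and 34.9%). With the fetus as replicate block the counts were 49 higher and 5 lower for liver against cerebrum (all genes 39.2% and 44.9%), 55 and 4 for liver against muscle (36.4% higher, and 7351 of 15972 genes lower) and 14 and 21 for muscle against cerebrum (33.4% and 34.8%), with 0 for the interaction. For liver against cerebrum the block lost NDUFB8 (-0.26) and NDUFAF5 (0.36) and gained NDUFA4L2 (-0.58), which also passed in 6 of the other 11 alternatives and in 4 of the 14 fits without 1 fetus. For muscle against cerebrum it gained ATP5F1D, MRPL17, MRPL34 and SDHC and lost ATP5MC3 and ATP5MPL.

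Against both other tissues, library totals gave 13 members higher and 17 lower in liver (all genes 13.4% and 59.1%), 11 higher in cerebrum (28.7%), and 5 higher and 9 lower in muscle (20.8% and 4.61%). Totals outside the mitochondrial genes gave 24 and 12 in liver (17.0% and 54.6%), 13 higher in cerebrum (31.2%) and 5 higher in muscle (20.5%). Without the cerebrum libraries of CON fetus 23 and RES fetus 1, 3 were higher and 17 lower in cerebrum (25.6% and 22.1%) and 12 lower in muscle (10.9%), and without the libraries with markers of another tissue 13 were lower in cerebrum (21.1%). In liver 2 were lower than both with DESeq2 (35.8%), its size factors (36.1%), the block (36.0%), the stricter filter (32.5%) or without the 4 livers of highest share (33.6%). On leaving out 1 fetus the members lower in cerebrum ran from 7 to 13 (17.8% and 21.5%) and those lower in liver from 0 to 2 (34.6% and 35.5%).

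DESeq2 called 1 member for diet in liver. For the mitochondrial share in cerebrum, where 15.3% of all genes passed, 6 members passed by DESeq2 (all genes 20.1%), 5 with library totals (10.8%), 7 without the cerebrum libraries named above (8.14%), 8 without sex (17.8%), 5 with a stricter filter (16.5%) and 0 to 22 on leaving out 1 fetus, where all genes ran from 0.455% to 26.0%. In liver 21 were positive with library totals (all genes 16.4%) and 3 negative without the 4 libraries of highest share (19.2%). In muscle DESeq2 called 5, of which 4 positive and 1 negative (3.31% of all genes called). The fit without sex called 8, all positive (4.34% of all genes called).

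The summed share of the members in liver was 0.411% in CON and 0.365% in RES as a share of all counts. Without the libraries that stood apart the median correlation was 0.41 in cerebrum, 0.68 in liver and 0.22 in muscle. The cerebrum difference in mitochondrial share by diet turned to -0.0266 without RES fetus 1 and reached 1.97 percentage points without RES fetus 52, and in liver it ran from 4.94 to 17.5.

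Signs of single genes also turned. For diet in cerebrum, leaving out both libraries gave ATP5MF 0.0327 and NDUFB5 0.0218. On leaving out 1 fetus ATP5MF ran from -1.06 to 0.144 and NDUFC2 from -0.680 to 0.00998, both highest without CON fetus 23. For diet in muscle COX6A2 became -0.0908 without RES fetuses 1 and 6. On leaving out 1 fetus NDUFA4L2 ran from -0.0651 to 0.394, MRPS11 from -0.0948 to 0.101 (0.0263 without RES fetus 55), and NDUFAF5 from -0.0619 to 0.0543 (0.00385 and 0.00658 without CON fetus 69 and RES fetus 55). For liver against muscle COX7A1 became -0.0779 with library totals. COX8B became -1.16 with library totals, -0.776 with totals outside the mitochondrial genes and -0.407 without the 4 livers, and ran from -0.0523 to 0.127 on leaving out 1 fetus (-0.00576 and -0.0148 without CON fetuses 2 and 23). NDUFS8 in muscle against cerebrum became 0.0176 without both cerebrum libraries. For these changes the cause was not tested. COX6A2 had few or no reads in cerebrum and liver, and COX8B few or no reads in cerebrum, which limits their values there.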
